A study of Mus musculus with 19 samples.

Results

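The 9 genes described here are Cd3d, Cd3e, Cd3g, Lck, Cd28, Cd6, Cd96, Bcl11b and Eomes, genes that mark T lymphocytes and natural killer (NK) cells, followed across 7 cell types sorted from mouse bone marrow. Their probes were found through the RefSeq accession printed for each probe, and the brightest probe was taken for each gene, which gave 9 of the 20660 named genes and of the 38391 features on a custom Agilent expression array. The genes had been chosen with their levels on the granulocyte, LSK and MEP arrays known, so comparisons that involve these 3 cell types are given for them as a description with no test. Tests are given for them only between GMP and CMP cells and between late and early erythroblasts.

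All cells came from adult bone marrow of C57BL/6 mice aged 8 to 12 weeks, with no treatment or altered gene named in the labels. LSK cells (Lin- cKit+ Sca1+), the stem and multipotent progenitor fraction, were measured on 3 arrays. CMP, the common myeloid progenitors (Lin- cKit+ Sca1-, CD16/32 low, CD34 high), and MEP, the megakaryocyte and erythroid progenitors (CD16/32 low, CD34 low), had 3 arrays each. GMP, the granulocyte and macrophage progenitors (CD16/32 high, CD34 high), had 2. Granulocytes (GRAN) were Gr1+ cells on 3 arrays. Early erythroblasts (EE: Ter119+, high forward scatter, CD44 high) had 2 arrays and late erythroblasts (LE: Ter119+, low forward scatter, CD44 mid) had 3. The labels do not tie the replicates to separate mice, and the errors and p-values measure the spread between these arrays, which may be technical.

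The T cell receptor recognises antigen but has no signalling tail of its own. It depends on the CD3 chains, encoded by Cd3d, Cd3e and Cd3g, whose cytoplasmic motifs are phosphorylated by the Src family kinase LCK. CD28 gives the costimulatory signal, CD6 and CD96 are surface receptors that bind ligands on other cells, BCL11B is the zinc finger factor that secures T cell commitment, and EOMES is a T-box factor of NK cells and cytotoxic T cells. NK cells lack the T cell receptor on their surface but share several of these transcripts. In marrow both kinds of cell are a minority beside the blood forming lineages.

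The start regions of the CD3 genes are shown because 2 of them, Cd3d and Cd3g, moved together while Cd3e did not. RefSeq promoter sequences (build GRCm38.p6, 250 bases before and 50 bases after the start) matched 7 of the 9 genes; Cd28 and Cd6 had no entry. The Cd3g and Cd3d starts are 1355 bases apart on chromosome 9 and point away from each other, and Cd3e lies on the same chromosome. The windows are chr9:44980382-44980681 (minus strand) for Cd3g, chr9:44981536-44981835 (plus strand) for Cd3d and chr9:45009562-45009861 (minus strand) for Cd3e. They are written 5′ to 3′ along the gene, with capitals for the matches to the motifs searched on both strands.
Cd3g: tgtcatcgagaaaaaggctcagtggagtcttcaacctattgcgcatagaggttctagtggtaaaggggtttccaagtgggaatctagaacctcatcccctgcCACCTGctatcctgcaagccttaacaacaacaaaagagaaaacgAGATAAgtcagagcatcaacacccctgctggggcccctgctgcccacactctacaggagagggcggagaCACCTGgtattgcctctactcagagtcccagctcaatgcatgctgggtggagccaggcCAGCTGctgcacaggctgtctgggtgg
Cd3d: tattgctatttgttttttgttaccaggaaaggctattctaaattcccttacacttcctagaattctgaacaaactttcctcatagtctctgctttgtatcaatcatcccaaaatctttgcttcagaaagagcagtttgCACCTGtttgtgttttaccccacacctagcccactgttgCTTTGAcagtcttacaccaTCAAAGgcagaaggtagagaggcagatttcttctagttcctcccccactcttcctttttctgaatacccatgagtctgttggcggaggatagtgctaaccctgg
Cd3e: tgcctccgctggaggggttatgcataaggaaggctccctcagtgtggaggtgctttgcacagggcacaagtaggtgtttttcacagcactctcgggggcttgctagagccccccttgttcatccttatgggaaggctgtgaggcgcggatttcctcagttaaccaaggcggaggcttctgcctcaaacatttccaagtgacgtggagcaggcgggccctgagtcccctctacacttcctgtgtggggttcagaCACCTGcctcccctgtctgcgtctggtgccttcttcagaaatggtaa

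An E-box was searched as CAGCTG, with the related spelling CAGGTG counted as the same motif, and was present in 32.9% of 32851 promoter windows of the same length. The GATA motif, searched as AGATAA and in the alternative form that starts with T, TGATAA, was present in 18.6% of windows. The TCF/LEF motif, CTTTGA, was present in 16% of them. The RUNX motif, TGTGGT, was found in 16.8%, and the ETS motif, CGGAAG, in 16.9%. The Cd3g window held 3 E-box matches and 1 GATA match, the Cd3d window 1 E-box match and 2 TCF/LEF matches, and the Cd3e window 1 E-box match. None of these 3 windows matched the RUNX or ETS letters, and no match overlapped another. The matches describe letters only.

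Levels are log2 of the background-corrected probe signal minus the array's 75th percentile, so 0 is the signal at that percentile, and a difference of 1 is 2-fold. A level is called well above background where the scanner software marked it so. Levels of different probes are not set against each other. The 5 erythroblast arrays were dim, with a 75th percentile of 50.1 to 81.3 intensity units against 266 to 607 on the other 14 arrays, and 42.9% to 47.1% of their spots were well above background against 49.5% to 66.3%. A fixed intensity therefore stands at a higher level on an erythroblast array. Arrays of the same cell type correlated at 0.9718 to 0.9931 over features. In RNA from sorted populations, fewer cells of a type and less RNA per cell cannot be told apart.

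**Figure D1:**
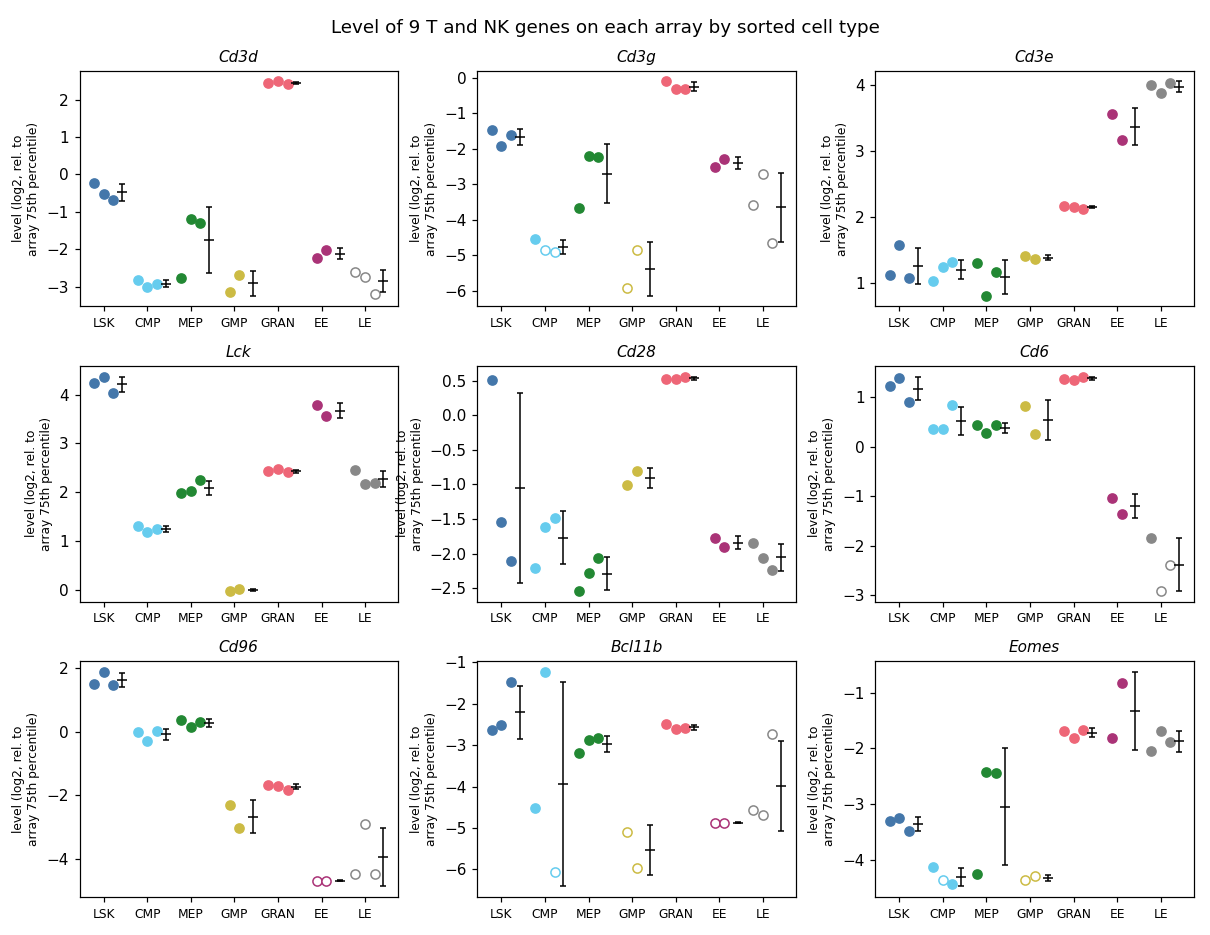
Level of each of the 9 genes (log2 relative to the array's 75th percentile) on the 19 arrays, grouped by sorted cell type. Filled points are well above background, open points are not, and the bar beside each group is the mean with 1 SD; Cd3d and Cd3g share their order from granulocytes through LSK cells to CMP cells, while Cd3e is highest on the erythroblast arrays and Cd96 on the LSK arrays.

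Cd3d, the delta chain, had its highest levels on the granulocyte arrays, at 2.44, 2.49 and 2.42, followed by the LSK arrays at -0.23, -0.53 and -0.67. The CMP arrays gave -2.83, -3.01 and -2.92 and the GMP arrays -3.15 and -2.68. The granulocyte mean of 2.45 ± 0.04 (SD, n = 3) stood 5.36 ± 0.35 (SE) above GMP and 2.93 ± 0.31 above LSK, and LSK stood 2.44 ± 0.31 above CMP. No granulocyte or LSK array overlapped any array of another cell type. The MEP arrays split, at -2.77 for replicate 1 and -1.2 and -1.3 for replicates 2 and 3. Replicate 1 lay among the CMP and GMP values, and the other two lay above every CMP, GMP and erythroblast array. Erythroblasts gave -2.23 and -2.02 (EE) and -2.61, -2.75 and -3.19 (LE), the LE arrays not well above background.

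Cd3g, the gamma chain, followed the same order: -0.1, -0.32 and -0.31 on the granulocyte arrays and -1.46, -1.91 and -1.62 on the LSK arrays. CMP gave -4.54, -4.84 and -4.9, of which 1 array was above the scanner's background mark, and neither GMP array (-5.92 and -4.85) was. Granulocytes were therefore at least 13.6-fold above GMP for this probe. That bound sets the granulocyte mean against the lowest signal well above background on each GMP array, or the probe's own where higher. The MEP arrays split as for Cd3d, at -3.67 for replicate 1 and -2.19 and -2.23 for replicates 2 and 3. All 3 lay above every CMP array. The MEP mean was 2.06 ± 0.44 above CMP and 2.55 above it without MEP replicate 1, and the same difference for Cd3d was 1.16 ± 0.31 and 1.67.

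Cd3e, the epsilon chain, did not follow its partners. LSK (1.13, 1.58 and 1.08), CMP (1.04, 1.25 and 1.32) and MEP (1.31, 0.81 and 1.17) overlapped, where the delta and gamma chains differed by 2.44 and 3.1 between LSK and CMP. GMP, at 1.41 and 1.36, lay within the LSK range and just above every CMP and MEP array. The LSK mean was 0.06 ± 0.16 above CMP. Granulocytes were higher, at 2.17, 2.16 and 2.13. Erythroblast levels were the highest, at 3.57 and 3.17 (EE) and 4, 3.88 and 4.04 (LE), but the unscaled probe intensity was nearly flat there. It was 732 to 854 on the erythroblast arrays and 680 to 1950 on the others, a range of 2.87-fold over all 19 arrays. Cd3d ran from 36.2 to 2360 on the 14 arrays other than erythroblasts, all well above background. The position of Cd3e above the other cell types in erythroblasts thus exists on the scaled values and not in intensity.

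**Figure D2:**
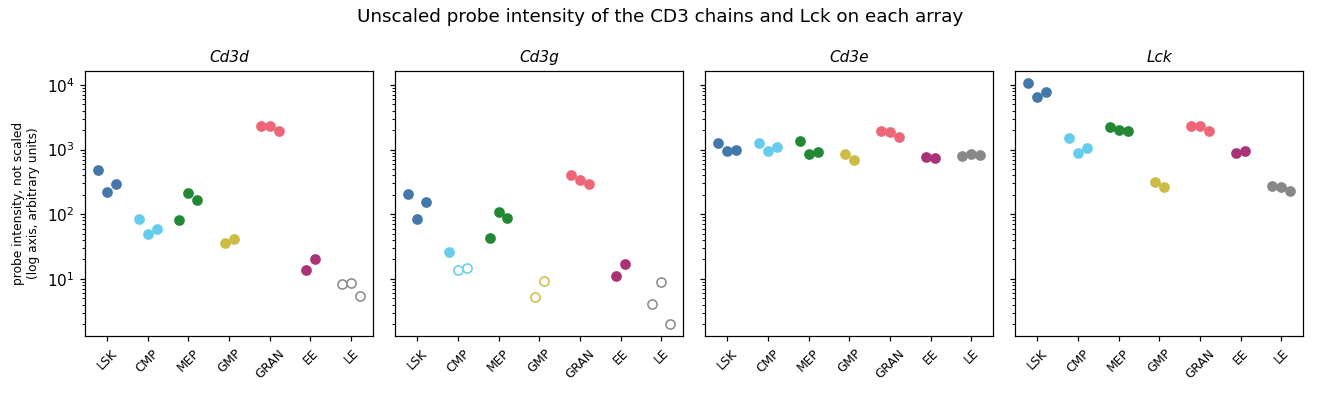
Unscaled probe intensity (log axis, arbitrary units) of Cd3d, Cd3g, Cd3e and Lck on each array, by cell type, with open points for signals not well above background. Cd3e stays between 680 and 1950 on all 19 arrays, while Cd3d runs from 36.2 to 2360 on the 14 arrays other than erythroblasts.

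Lck had its highest levels on the LSK arrays, at 4.24, 4.35 and 4.04, above the granulocyte arrays at 2.43, 2.47 and 2.41. This turned the order seen for the CD3 chains: granulocytes were 1.78 ± 0.12 below LSK for Lck and 2.93 ± 0.31 above LSK for Cd3d. The MEP arrays, at 1.99, 2.02 and 2.26, lay close together and above the CMP arrays at 1.32, 1.18 and 1.25. MEP replicate 1 did not stand apart for Lck as it did for Cd3d and Cd3g. GMP was lowest, at -0.01 and 0.02. Erythroblasts gave 3.78 and 3.56 (EE) and 2.46, 2.18 and 2.19 (LE), from intensities of 884 to 961 and 229 to 275 against 901 to 1510 in CMP, so EE lay above CMP on the scaled values and overlapped it in intensity.

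Lck was the member that fell most clearly in the pairs that could be tested. From CMP to GMP it fell by 1.25 ± 0.13 (SE; adjusted p = 6.8e-06 in limma), and from EE to LE by 1.40 ± 0.13 (adjusted p = 5.77e-07), and the arrays of the groups compared did not overlap in either pair. Within the slide that held arrays of both groups the differences were -1.17 for GMP minus CMP, and -1.33 and -1.37 on the 2 slides for LE minus EE.

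Cd96, a receptor of NK and T cells, was highest on the LSK arrays (1.5, 1.88 and 1.48), then MEP (0.36, 0.14 and 0.31) and CMP (0, -0.28 and 0.02). Granulocytes, at -1.66, -1.71 and -1.82, were lower, 3.35 ± 0.32 below LSK, opposite to the CD3 delta and gamma chains. GMP gave -2.3 and -3.03, and Cd96 fell from CMP to GMP by 2.58 ± 0.36 (limma adjusted p = 0.000102), with no overlap of arrays. The erythroblast arrays were not well above background for this gene. Across the 14 arrays that are not erythroblasts, Cd96 correlated at 0.03 with the mean of the other 8 genes, against 0.93 for Cd3g and 0.91 for Cd3d, which describes these arrays and carries no test.

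Cd28, the costimulatory receptor, lay between 0.52 and 0.56 on the granulocyte arrays, above every array of the other types but with LSK replicate 1 close by at 0.51. LSK replicates 2 and 3 gave -1.55 and -2.1, within the range of CMP (-2.21 to -1.49). Of these, -1.55 lay above the MEP range (-2.54 to -2.06) and -2.1 within it. The intensities were 814 on LSK replicate 1 and 109 on each of the other LSK arrays, so the LSK mean of -1.05 ± 1.38 (SD, n = 3) rests on that array. GMP gave -1.01 and -0.8, and the difference from CMP was 0.87 ± 0.51 (limma adjusted p = 0.303). EE (-1.77 and -1.91) and LE (-1.85, -2.07 and -2.24) differed by -0.21 ± 0.51 (adjusted p = 0.733).

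Cd6 was higher on the granulocyte (1.37, 1.35 and 1.41) and LSK (1.23, 1.38 and 0.91) arrays, which overlapped each other. CMP (0.35, 0.35 and 0.84), MEP (0.43, 0.27 and 0.44) and GMP (0.83 and 0.25) also overlapped, and GMP differed from CMP by 0.03 ± 0.27 (limma adjusted p = 0.969). Erythroblasts were lower, at -1.03 and -1.37 (EE) and -1.85, -2.91 and -2.39 (LE), with 1 of 3 LE arrays well above background. The second Cd6 probe was dim, between -4.23 and -2.81 on the 14 other arrays, and had its highest means rather than its lowest in erythroblasts (EE -1.72 ± 0.69, n = 2; LE -2.24 ± 1.45, n = 3). This reversal exists on the scaled values: in unscaled intensity the second probe also had its lowest means in erythroblasts, 22.5 (EE) and 15.5 (LE) against 27.7 to 51 in the other cell types, although single arrays overlapped.

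Bcl11b was close to the detection limit. Its brighter probe gave -2.63, -2.52 and -1.47 in LSK, -3.19, -2.88 and -2.84 in MEP and -2.5, -2.62 and -2.59 in granulocytes. The CMP arrays scattered over -4.52, -1.23 and -6.06, so no order against CMP can be read from this probe. The second probe was steadier in CMP (-4.74, -5.85 and -5.54, with 1 of 3 arrays well above background). It gave -3.86, -3.38 and -3.33 in LSK and -3.55, -3.31 and -3.1 in MEP, both above all CMP arrays, and -4.18, -3.94 and -4.07 in granulocytes. Neither probe was well above background on any GMP or erythroblast array, and granulocytes were at least 2.71-fold above GMP for the brighter one.

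Eomes was also low, and its second probe was not well above background on any array. The brighter probe gave -1.68, -1.81 and -1.67 on the granulocyte arrays, at least 4.89-fold above GMP, where neither array was well above background. LSK gave -3.31, -3.25 and -3.49 and CMP -4.12, -4.37 and -4.43. MEP replicates 2 and 3 stood at -2.43 and -2.45, above every LSK array, and MEP replicate 1 at -4.26 lay within the CMP range. The MEP mean was 1.26 ± 0.37 above CMP, and 1.87 above it without MEP replicate 1. Erythroblast values of -1.82 and -0.83 (EE) and -2.05, -1.68 and -1.89 (LE) came from intensities of 12.1 to 45.7, against 114 to 136 in granulocytes.

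Between GMP and CMP, 6 of the 9 genes passed the filter on dim probes (a signal well above background throughout 1 group of the pair). Of these, Lck and Cd96 fell and none rose, where 18% of all features tested were called and 8.48% were called lower. Cd3d differed by 0.01 ± 0.35 (limma adjusted p = 0.995) and Cd3e by 0.18 ± 0.18 (adjusted p = 0.592). Cd3g, Bcl11b and Eomes were not tested. Between LE and EE, 7 passed the filter, where 59.9% of features tested were called, 22.1% higher and 37.7% lower in LE. Lck, Cd6 (-1.19 ± 0.26, adjusted p = 0.00129) and Cd3g (-1.25 ± 0.50, adjusted p = 0.041) fell and Cd3e rose (0.61 ± 0.17, adjusted p = 0.00743).

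Of these 4 calls between the erythroblast stages, the Lck call alone held under every alternative applied to the single members. The alternatives with no filter on dim probes and with only the pair's arrays were not applied to the single members. Whether the Lck call holds under them was not tested. Cd3g was not well above background on any LE array, so LE was at least 1.12-fold lower, and its adjusted p ran from 0.0592 to 0.998 where the call was lost. Leaving out EE 1, EE 2, LE 1 or LE 3 gave differences of -1.37, -1.13, -1.28 and -0.75 with adjusted p values of 0.0961, 0.17, 0.0673 and 0.174. Cd3e differed by 0.15 with no scaling between arrays (adjusted p = 0.672) and by 0.41 without EE 2 (adjusted p = 0.122). Cd6 differed by -0.13 with another background correction (adjusted p = 0.536). Cd3d, at -0.73 ± 0.35 (adjusted p = 0.0853), was called, among the alternatives applied to the members, only with quantile normalization or with no scaling between arrays.

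The other T and NK genes were taken from 3 lists, chosen with earlier results of these data known: 26 genes of receptor signalling and coreceptors, 11 T lineage transcription factors and 25 NK and cytotoxic genes, of which 61 of 62 were on the array. Counts are features called by limma (adjusted p below 0.05, the higher group well above background on all its arrays). Each count stands beside the share called over all features tested, and the comparisons share arrays.

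**Figure D3:**
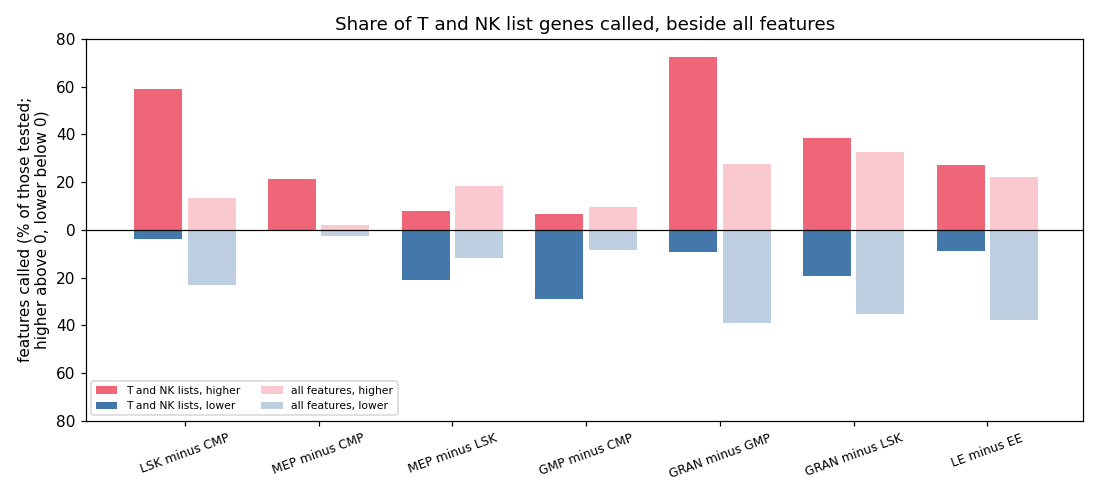
Share of tested genes of the 3 T and NK lists called higher (above 0) or lower (below 0) in the cell type named first, in full colour, beside the same share of all features tested, in pale colour, for 7 comparisons. In LSK minus CMP 30 of 51 list genes are higher and 2 lower, and in GRAN minus GMP 39 of 54 are higher and 5 lower.

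LSK cells carried a broad set of T and NK transcripts relative to CMP. Of 51 list genes tested, 30 rose and 2 fell, 62.7% against 36.8% of all features (13.5% higher, 23.3% lower), and the median difference was 1.38 against -0.17. Of the 20 signalling genes tested, 16 rose, among them Icos (3.01 ± 0.17, limma adjusted p = 1.14e-08), a costimulatory receptor, and Skap1 (2.71 ± 0.40, adjusted p = 8.8e-05), an adaptor. Of 11 transcription factors, 4 rose, led by Tox (3.74 ± 0.77, adjusted p = 0.00146) and Rora (3.14 ± 0.32). Of 20 NK and cytotoxic genes, 10 rose, among them Ctsw (2.53 ± 0.29), a protease of cytotoxic cells, and Xcl1 (2.46 ± 0.54), a chemokine of NK cells. Ubash3a and Grap2 were the genes called lower.

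The same LSK arrays differed from CMP for other lineages too, in both directions. Of 11 mature neutrophil genes, 10 rose, with a summed level of 1200 to 1340 (linear scale, relative to the 75th percentile) against 163 to 296 in CMP, and S100a8 stood at 8.07 to 8.27 against 5.1 to 6.05. Of 10 lymphoid priming genes 8 rose, and of 14 B cell markers tested 5 rose, with a sum of 17.4 to 21.5 against 11.3 to 17, 35.7% called against 36.8% of all features in either direction and 13.5% higher. Of 7 platelet and megakaryocyte genes 1 rose and 4 fell (sum 38.4 to 41.3 against 82.2 to 110). Of 11 monocyte, macrophage and dendritic genes 3 rose and 4 fell (sum 214 to 251 against 294 to 383). Most of this last sum came from the Siglech probe, at 7.59 to 7.86 in LSK and 7.93 to 8.19 in CMP. The part of these other lineages in the T and NK levels was not tested. Of all features called, 36.6% were higher in LSK, a share of 48.8% with quantile normalization and 67.7% with a percentile over probes detected throughout, while the list split stayed between 25 higher with 1 lower and 35 higher with 1 lower.

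MEP cells differed from CMP in fewer T and NK genes. Of 47 tested, 10 rose and none fell, 21.3% against 4.52% of all features (1.86% higher, 2.65% lower), with a median difference of 0.92 against -0.03. Tcf7, the T lineage factor TCF-1, rose by 2.19 ± 0.32 (limma adjusted p = 0.0025), Rora by 1.73 ± 0.32 (adjusted p = 0.00706) and Icos by 1.28 ± 0.17 (adjusted p = 0.00125). Skap1, Trat1 and Ctsw followed at 1.72 ± 0.40, 1.5 ± 0.37 and 1.22 ± 0.29. Prkcq, Il7r and Thy1 were also among those called. For Tcf7, all 3 MEP arrays (-1.3, -0.76 and -0.89) lay above all 3 CMP arrays (-2.29, -3.45 and -3.77).

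This count changed with single arrays, and so did that of all features. The list count was 20 of 49 tested without MEP replicate 1, 4 of 48 without CMP replicate 2 and 6 of 47 without CMP replicate 3. It was 4 of 47 without MEP replicate 2 and 5 of 48 without MEP replicate 3. No list gene was called lower in these settings. All features called fell from 1032 to 302 of 24229 without CMP replicate 2 and 325 of 23028 without CMP replicate 3. They fell to 525 of 22904 without MEP replicate 2 and 492 of 24421 without MEP replicate 3, and were at most 1233 with any replicate left out. With only the MEP and CMP arrays in the limma fit, 0 of the 47 and 0 of all features were called. An unadjusted p below 0.05 was reached in that fit by 21 of the 47 and by 4268 of all 22842 features tested. Of all features called, 41.3% were higher in MEP, 62.9% with the percentile over probes detected throughout and 28.1% with no scaling between arrays. The list genes called were 11 higher and 0 lower, and 4 higher and 0 lower, under these 2 scalings, and 19 higher and 1 lower with normexp background correction.

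MEP replicate 1 stood apart for the NK genes in particular. Of 23 NK and cytotoxic genes well above background on at least 1 MEP array, 16 (69.6%) lay at least 1 unit below both other arrays on replicate 1, and none did so on replicates 2 or 3. Over all 26873 features the share was 1.44% on replicate 1, 1.75% on replicate 2 and 3.16% on replicate 3. Among the 23 signalling genes 4 lay below in this way and among the 11 transcription factors none. Mature neutrophil genes (0 of 11) and platelet and megakaryocyte genes (0 of 7) did not split, and 2 of 14 B cell markers did. Some NK and cytotoxic genes did not split, such as Nkg7 (5.08 to 5.58 over the MEP arrays), Prf1 (0.26 to 0.88) and Gzmk (-1.77 to -1.15). Of this list, 16 genes were well above background on replicate 1, 23 on replicate 2 and 18 on replicate 3. Some of the 23 were thus counted only through the replicates where they were higher.

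The split was wide for the NK and cytotoxic genes given next, which were named after their values were seen. Ncr1, which encodes the NK receptor NKp46, gave -5.01 on MEP replicate 1 and -2 and -2.61 on replicates 2 and 3. The lowest signal well above background on MEP replicate 1 also stood at -5.01. Gzma, the granzyme A gene, gave -0.43, 1.94 and 1.69, and Ifng, the interferon gamma gene, -3.14, -0.41 and -0.07. Klrb1c, the gene of the NK1.1 antigen, gave -3.03, -0.91 and -1.39, and Tbx21, the partner T-box factor of Eomes, -3.24, -1.33 and -1.51. On replicate 1 each of these lay within 1 unit of the CMP arrays. On replicates 2 and 3 they came close to or passed the lowest LSK array, and for Gzma they passed all 3 LSK arrays (1.48, 1.12 and 1.07). The 3 MEP arrays lay on 3 slides, each with a CMP array. Within these slides MEP minus CMP for Cd3d was 0.06 for replicate 1 and 1.81 and 1.62 for replicates 2 and 3, and for Lck it was 0.67, 0.84 and 1.01. The part of the slide in the split was not tested.

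**Figure D4:**
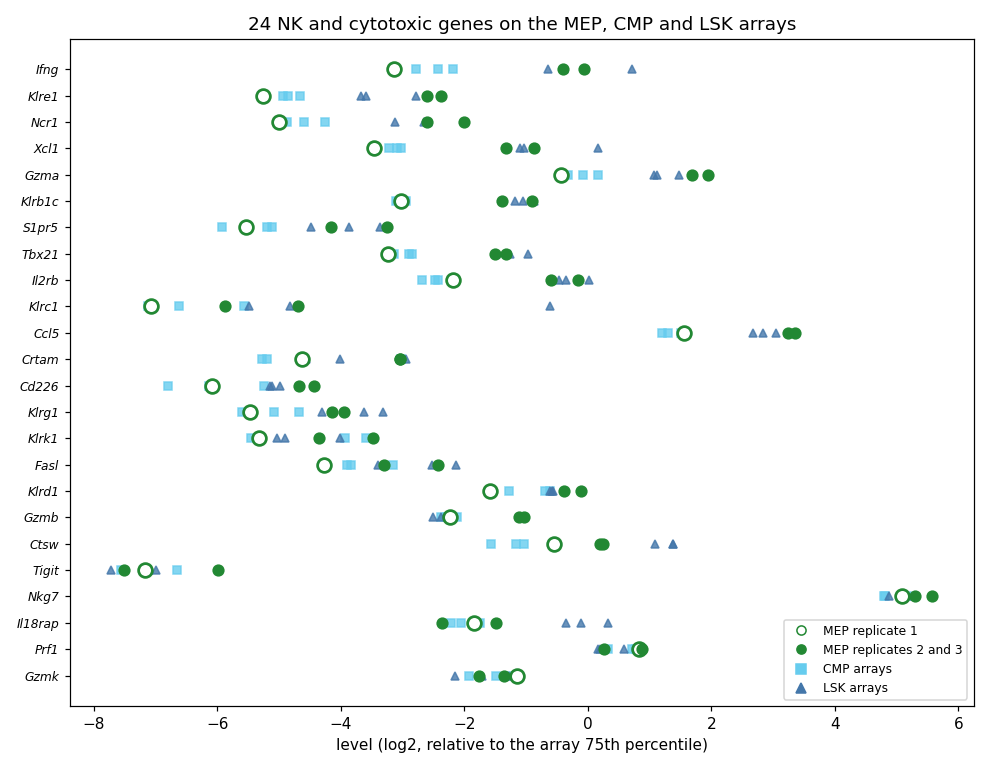
Level (log2 relative to the array's 75th percentile) of 24 NK and cytotoxic genes on the MEP, CMP and LSK arrays, ordered by the gap between MEP replicate 1 and the mean of replicates 2 and 3. Open circles are MEP replicate 1, filled circles replicates 2 and 3, squares CMP and triangles LSK; for 16 of the 23 genes detected in MEP, replicate 1 lies at least 1 unit below the other MEP arrays, near the CMP squares.

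MEP cells were lower than LSK cells in more list genes than they were higher. Of 52 tested, 11 fell and 4 rose, 28.8% against 30.1% of all features (18.3% higher, 11.9% lower), with a median of -0.51 against 0.14. The share called was close to that of all features. Icos fell by 1.73 ± 0.17 (limma adjusted p = 3e-06), Cd27, a costimulatory receptor also found on progenitors, by 1.40 ± 0.21, and Il18rap, a subunit of the interleukin 18 receptor, by 1.86 ± 0.38. Tcf7 rose by 1.5 ± 0.33 and Grap2 by 1.8 ± 0.16. Of all features called, 60.7% were higher in MEP, 50% with quantile normalization, 50.4% with no scaling and 35.6% with the percentile over probes detected throughout.

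From CMP to GMP most of the list genes called fell. Of 45 tested, 13 fell and 3 rose, 35.6% against 18% of all features (9.53% higher, 8.48% lower), with a median of -0.50 against 0.04. Among the signalling genes, 10 of 19 fell and none rose. Il7r, the interleukin 7 receptor, was not well above background in GMP and was at least 2.33-fold lower there (limma adjusted p = 2.36e-07), and Gata3 was at least 6-fold lower (adjusted p = 0.000302). Prkcq, the theta protein kinase C of T cells, fell by 3.02 ± 0.29. Nkg7, a granule protein of cytotoxic cells, rose by 2.33 ± 0.21, from a mean of 4.92 to 7.25, as did Ets1 and Zbtb7b. The list count (46 tested) and the count of all features were both lower without GMP replicate 2, which left 1 GMP array in the fit. Of all features called, 52.9% were higher in GMP, 41.9% with quantile normalization, 36% with the percentile over probes detected throughout and 9.28% with no scaling.

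Of the 61 list genes, 53 were well above background on every granulocyte array, against 51 in LSK, 46 in MEP, 44 in CMP and 33 in GMP. Over all noncontrol spots, 51.3% to 58.2% were so marked on single granulocyte arrays and 58.4% to 66.3% on LSK arrays. Against GMP, 39 of 54 list genes rose and 5 fell, 81.5% against 66.6% of all features (27.7% higher, 38.9% lower), with a median of 2.58 against -0.19. Cd2, an adhesion receptor of T and NK cells, rose by 5.71 ± 0.57 (limma adjusted p = 5.79e-07). Il7r was at least 12.9-fold higher, Fasl, the death ligand of cytotoxic cells, at least 13.1-fold, Xcl1 at least 16.2-fold and Lef1 at least 7.56-fold. Cd8a, the coreceptor of cytotoxic T cells, stood at -2.29, -2.42 and -2.41 on the granulocyte arrays and was not well above background on any array of another cell type. Ubash3a, Cd27, Runx3, Foxp3 and Nkg7 fell. Of all features called, 41.6% were higher in granulocytes, 52.7% with the percentile over probes detected throughout and 62% with no scaling.

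Against LSK, the granulocyte list genes went both ways. Of 57 tested, 22 rose and 11 fell, 57.9% against 68% of all features (32.7% higher, 35.3% lower), with a median of 0.60 against -0.03. Cd8a was at least 6.48-fold and Cd8b1 at least 5.18-fold higher in granulocytes, and Gzmb, the granzyme B gene, rose by 3.14 ± 0.36 (limma adjusted p = 2e-06). Cd27 fell by 5.05 ± 0.21, Tox by 4.59 ± 0.77, Gata3 by 3.50 ± 0.58 and Rora by 3.40 ± 0.32. Granulocytes shared no slide with LSK or GMP arrays, so these pairs have no value within a slide. With the slide as a block in the fit, Cd3d stood 5.97 ± 0.57 above GMP and 3.58 ± 0.54 above LSK.

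Several markers of other mature cells were also high on the granulocyte arrays. All 15 B cell markers were well above background on every granulocyte array, with a summed level of 68 to 70.1 against 7.23 to 21.5 on all other arrays. Ms4a1, which encodes CD20, stood at 2.42 to 2.55 there and did not exceed -2.95 elsewhere. The complement genes C1qa, C1qb and C1qc of tissue macrophages stood at 2.79 to 2.86, 2.65 to 2.73 and 3.21 to 3.35, above every progenitor array. The summed level of the whole monocyte, macrophage and dendritic list overlapped GMP, at 375 to 396 against 363 to 418. Most of that sum came from the Siglech probe, at 7.94 to 8.06 in granulocytes and 7.98 to 8.26 in GMP. Of the 11 genes of this list 7 rose from GMP and 2 fell, and Cx3cr1 stood at 1.45 to 1.62 against 3.19 to 3.26. Mature neutrophil genes summed to 6770 to 7660 on the granulocyte arrays and to at most 2800 elsewhere. The sorting antibody to Gr1 binds Ly6G on neutrophils and Ly6C, which monocytes and some lymphocytes carry. The part of the other cell types in the T and NK levels was not tested.

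**Figure D5:**
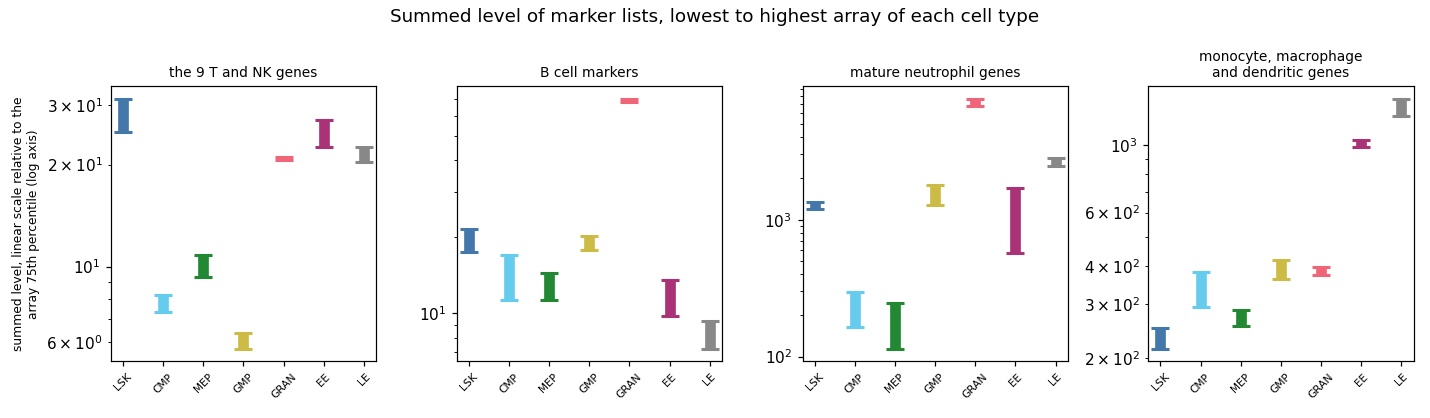
Summed level (linear scale relative to the array's 75th percentile, log axis) of the 9 T and NK genes and of 3 other marker lists, from the lowest to the highest array of each cell type. B cell markers sum to 68 to 70.1 on the granulocyte arrays and to at most 21.5 elsewhere, and the 9 genes sum to 24.9 to 31.3 in LSK, 20.7 to 21.1 in granulocytes, 22.6 to 27.1 in EE and 20.4 to 22.6 in LE. In erythroblasts the sum of the 9 genes comes mostly from Cd3e and Lck on the scaled values. There 4 of the 9 genes are well above background on no LE array and 2 on no EE array. Most of the monocyte, macrophage and dendritic sum comes from the Siglech probe.

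Between the erythroblast stages, 22 list genes could be tested. In LE 6 rose and 2 fell, 36.4% against 59.9% of all features, with a median of 0.20 against -0.17. Ikzf3 rose by 1.77 ± 0.24 (limma adjusted p = 2e-05) and Grap2, an adaptor of T cells, by 1.52 ± 0.17; Grap2 stood at 2.9 and 2.67 in EE and at most at -2 outside the erythroblasts. Cd2 was at least 2.02-fold lower and Gzma fell by 1.48 ± 0.53. The split was 9 higher and 0 lower with the percentile over probes detected throughout, and 2 higher and 3 lower with no scaling. Of all features called, 37% were higher in LE, 55.6% and 13% under these settings. EE replicate 2 was above EE replicate 1 for Ccl5 (1.61 against 0.31), Gzma (1.11 against 0.13) and Cd2 (-0.77 against -2.35). Among the members it was above for Cd3d, Cd3g and Eomes. It was below replicate 1 for Lck (3.56 against 3.78), Cd3e (3.17 against 3.57), Cd6 (-1.37 against -1.03) and Cd28 (-1.91 against -1.77). The mature neutrophil genes summed to 1700 on EE replicate 2 and to 571 on EE replicate 1. The list count was lower without EE replicate 2 (25 list genes tested) and higher without EE replicate 1 (31 tested). The count of all features was lower in both settings, and each left 1 EE array in the fit. All 11 mature neutrophil genes rose from EE to LE.

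The named genes whose level followed the mean of the 9 most closely over the 14 arrays of LSK, CMP, MEP, GMP and granulocytes were, of 14945 compared, Maf (r = 0.984), Dab2ip (0.984), Nfatc1 (0.982), Dusp6 (0.982), Prr5l (0.981), Irf7 (0.98), Nfkbiz (0.977), Upp1 (0.977), Sema7a (0.976) and Ccrl2 (0.975). Maf, a leucine zipper factor, had means of -0.56 in granulocytes, -2.19 in LSK, -4.05 in MEP, -4.84 in CMP and -6.08 in GMP. None of the 10 belongs to the 3 lists. The points share cell types and slides, and no test was made. With cell type means in place of arrays 2 of these 10 stayed among the 10 closest, and with the erythroblast arrays included 1 did.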

How the data were processed

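Total RNA from 19 sorted samples was hybridised to single-colour arrays, 1 sample per array. The deposited scanner files come from the Agilent Feature Extraction software (version 11.5.1.1), per the file headers, and hold processed signals as intensity after the authors' background correction. The series' value table held the same arrays' background-subtracted intensities as the authors deposited them, without scaling, and was an alternative. From there, log2 of the processed signal minus each array's 75th percentile over noncontrol spots was taken, outlier spots were left out, spots of a probe were averaged, and the brightest probe stood for a gene. The 27235 probes with a matched RefSeq accession gave 20660 named genes.

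Cell type means over all 19 arrays were fitted with limma 3.58.1 (R 4.3.3) with eBayes. A feature was tested in a pair if its signal was well above background throughout 1 of the groups, and p-values were adjusted by Benjamini-Hochberg over all features tested, at 0.05. Errors of differences are the fit's standard errors and errors of means are SDs. The number of arrays limits the precision. The fit was tested on simulated arrays: in LSK against CMP over 38391 features, 24% of 2-fold and 62% of 4-fold changes were recovered, and 7.53% of the calls were false. The simulation held far fewer changed features than were called in the data, and no filter on dim probes. These rates therefore need not hold for the data. The members and lists were chosen with earlier results of these data known. Named are the members, up to 3 called genes per list and comparison with the largest difference, the 10 genes most like the members, and up to 2 genes of each other list, the highest in the cell type discussed. Cd8a, Ms4a1, S100a8, the C1q genes, Ncr1, Gzma, Gzmk, Prf1, Ifng, Klrb1c, Tbx21, Ccl5 and genes named only in counts were named after their values were seen. Slides were read from the array identifiers, and all arrays were scanned on 1 day. Alternatives were normexp background correction (offset 50, on median signals, since mean signals were not used here), quantile normalization, a percentile over probes detected on every array, the mean over probes, no filter, slide or replicate blocks, only the pair's arrays, the authors' table, no scaling (added after the data were seen) and leaving out each replicate. The labels do not say whether the replicate numbers pair the samples, and the main fit did not pair them. Some list genes are not reported here.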

Additional observations from a re-analysis of the deposited data

How the results depend on the processing

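For the T and NK list genes called, 94 of 109 alternative counts stayed within 1.5 times the main count. MEP against CMP (10 called) gave 20 with normexp background correction, 4 with quantile normalization, 4 with no scaling and 0 with only the arrays of both groups, and 4 to 20 when each replicate was left out. MEP against LSK (15) gave 24 with normexp. GMP against CMP (16) moved beyond 1.5 times without GMP replicate 2, which left 1 GMP array in the fit. The count of all features did not. LE against EE (8) gave 5 with normexp, 5 with no scaling and 5 to 13 when each replicate was left out. The counts of all features moved most for MEP against CMP (1032): 2002 with normexp, 644 with no filter, 146 with no scaling, 0 with only the arrays of both groups (4268 at an unadjusted p below 0.05 in limma) and 302 without CMP replicate 2. The 10 genes most like the members shared 2 with the list from cell type means and 1 with the list from all arrays. Cd3g in GMP minus CMP, dim in both groups, was -0.63 in the main setting and 0.33 with normexp. The cause of these changes was not tested. A scaling over probes detected on every array moved the median difference of all features from -0.17 to 0.15 in LSK minus CMP, and no scaling moved it from 0.04 to -0.66 in GMP minus CMP. Same-numbered arrays of different cell types had deviations correlated at -0.39 to 0.26, and arrays with other numbers at -0.29 to 0.41. With so few arrays per cell type these ranges cannot decide whether the replicate numbers pair samples, and the labels do not say. For arrays of different cell types on the same slide the correlations were -0.1 to 0.41 (median 0.13). On different slides they were -0.39 to 0.31 (median -0.02). With the replicate block the list counts were 31, 10, 15, 16, 44, 33 and 8 for LSK against CMP, MEP against CMP, MEP against LSK, GMP against CMP, GRAN against GMP, GRAN against LSK and LE against EE. Of the member calls the block ended that of Cd3g in LE minus EE (adjusted p = 0.0592 in limma).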
